A study of Homo sapiens with 4 samples.

Results

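The dual specificity MAP kinase phosphatases DUSP1, DUSP2, DUSP4, DUSP5, DUSP6, DUSP7, DUSP8, DUSP10 and DUSP16, together with DUSP26, were compared between a PKP3 knockdown clone and a vector control clone of HCT116 cells. DUSP26 was selected on its measured difference between these clones, and the 9 others were taken by gene name as its relatives. The 10 genes are among 19614 genes with a RefSeq symbol on the array, and 17 of its 50238 probes read them. HCT116 is a line established from a colorectal carcinoma, and PKP3 encodes plakophilin 3, a protein of the desmosomal plaque. The vector control (vec) carries the empty vector, and the knockdown clone (shpkp3-2) carries a plasmid encoded shRNA against PKP3. Both are stable clones grown in IMDM under selection, with puromycin at 5 μg/ml according to the labels and with blasticidin according to the methods. Each clone was read on 2 single color (Cy3) arrays, which makes 4 arrays in all. The first array of each clone holds RNA of collection 1 and the second holds RNA of collection 2. Each condition is 1 clone, so the spread between its arrays is the spread between RNA collections of that clone and holds no difference between clones of the same kind. All 4 arrays lay on 1 slide with the arrays of a clone next to each other, and the effects of position and of clone cannot be told apart.

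MAP kinases are switched on by phosphorylation of a threonine and a tyrosine in their activation loop, and dual specificity phosphatases of the MAP kinase phosphatase (MKP) group remove both phosphates. Many MKP genes are themselves transcribed in response to MAP kinase activity, so that they form feedback loops, and they differ in where they lie in the cell and in whether they prefer ERK or the stress kinases JNK and p38. DUSP26 is a small phosphatase without the amino-terminal MAP kinase binding domain of the typical MKPs, and it is known from brain and neuroendocrine tissue.

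The probes are 60 bases long, and the array files give no genome position for any of the 17. The following 3 probe sequences are shown as examples, from a member with a single dim probe and from members with a pair of probes. The DUSP7 probe is the single, dim probe behind the largest difference among the 9 other members. The DUSP2 and DUSP10 probes are the dimmer of a pair that gave unequal differences for the same gene. Each is printed as the files give it, in the orientation of the file.

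DUSP7: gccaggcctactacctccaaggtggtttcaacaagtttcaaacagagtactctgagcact
DUSP2 second probe: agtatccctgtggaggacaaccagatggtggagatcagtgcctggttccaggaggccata
DUSP10 second probe: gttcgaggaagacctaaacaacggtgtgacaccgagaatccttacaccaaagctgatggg

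Their GC content was 48.3%, 55% and 50%, in that order. Probes of a gene with several are numbered from the brightest to the dimmest. A level is the log2 of the processed signal minus the 75th percentile of the array, and levels are compared between arrays for the same probe and never between probes. A probe is called well above background by the flag of the scanner software.

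The targeted gene was examined first. The vec arrays gave processed PKP3 signals of 20850 and 22840, and shpkp3-2 gave 3414 and 3078. The log2 difference was -2.54 (SE 0.23, n = 2 arrays per clone, limma adjusted p = 0.0188), which left 17.2% of the vec level. With no filter on detection the adjusted p was 0.135. Every shpkp3-2 array lay below both vec arrays, as the labels have it. Over the 30512 probes tested, 75 (0.246%) were higher and 44 (0.144%) were lower in shpkp3-2 at an adjusted p under 0.05. With the RNA collection as a block these counts became 503 (1.65%) and 338 (1.11%). Of the tested probes, 56.9% had a higher mean in shpkp3-2, and their median log2 difference was 0.05. The first vec array stood apart in brightness, with a 75th percentile of 499 against 374 to 381 on the other 3 arrays. Of the 9 colon epithelium markers, 7 were well above background on all 4 arrays, among them EPCAM, CDH1, CDX2 and the keratins. CDX1 was seen on no array and VIL1 on 1 shpkp3-2 array.

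DUSP26 was seen in the knockdown clone and was not well above background in the vector control. The processed signals of its single probe were 7.03 and 7.66 in vec, and they were 305 and 235 in shpkp3-2. The levels were -6.15 and -5.64 in vec and -0.31 and -0.67 in shpkp3-2, so that the clones did not overlap. As neither vec array measured the probe, the vec level is only an upper bound, set at the lowest signal well above background on each array. Against that bound DUSP26 was at least 32.4-fold higher in shpkp3-2. The log2 difference of the processed signals was 5.40 (SE 0.25), with 5.83 in collection 1 and 4.97 in collection 2. Under normexp background correction, which adds an offset of 50 to every signal, it was 2.43. DUSP26 was chosen with this difference known, and no test of it is given.

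Its probe was 1 of 206 (0.411%) that both shpkp3-2 arrays and neither vec array measured above background. In these RNA samples, more cells with the transcript and more transcript per cell cannot be told apart. Markers of neural and neuroendocrine cells, in which DUSP26 is known to be high, were also read. SYP, SNAP25, NCAM1 and CHGB, which encode synaptic vesicle, membrane fusion, adhesion and granule proteins, were well above background on no array. CHGA, ENO2, TUBB3 and GFAP were seen on all 4. The summed signal of the 8 markers, not scaled between arrays, was 17379 to 21773 in vec and 15765 to 16601 in shpkp3-2. TUBB3 alone gave 16689 and 21142 in vec and 16060 and 15156 in shpkp3-2, so the sum mostly reads TUBB3. GFAP, an intermediate filament gene of glia, had signals of 53.0 and 161 in vec and of 224 and 182 in shpkp3-2. Its log2 difference was 2.48 in collection 1 and 0.20 in collection 2. The adjusted p was 0.450 by limma (SE 0.61) and 0.0219 with the collection as a block (SE 0.34).

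**Figure D1:**
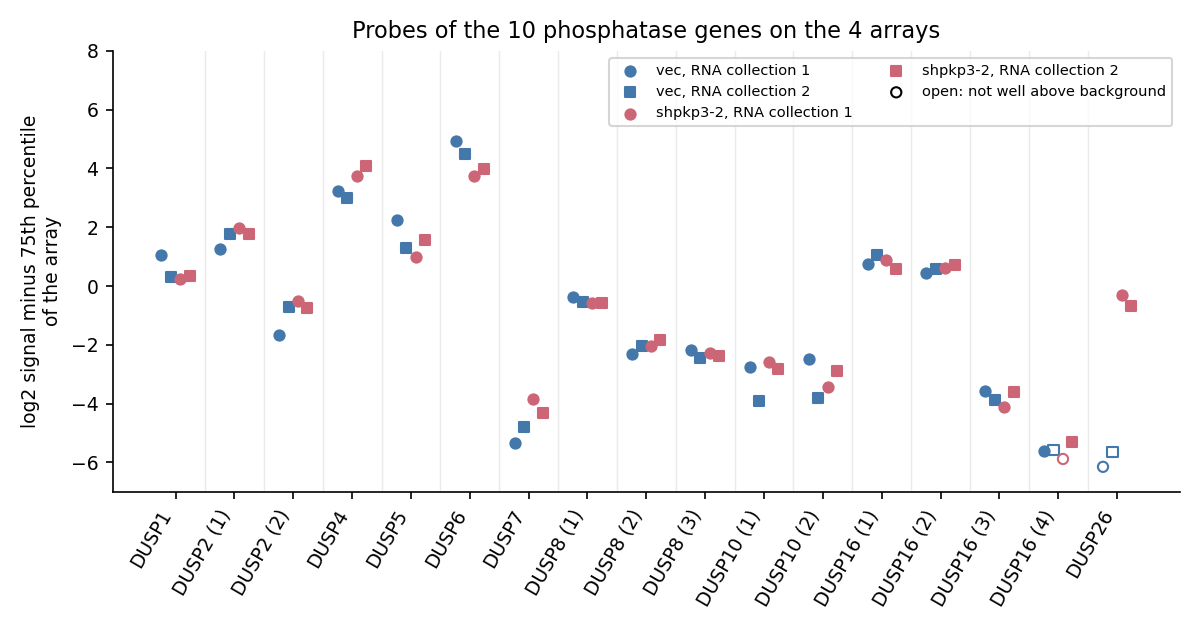
Levels (log2 processed signal minus the 75th percentile of the array) of the 17 probes of the 10 genes on the 4 arrays. Blue marks vec, red shpkp3-2, circles RNA collection 1, squares collection 2, and open symbols are not well above background. DUSP26 was at -6.15 and -5.64 in vec and at -0.31 and -0.67 in shpkp3-2, and all other probes lay closer together. Heights compare arrays within a column, not probes with each other.

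None of the 9 other members was called. Of their 16 probes 15 were tested, and the limma adjusted p over all tested probes ranged from 0.240 to 0.992, or from 0.0620 upward with the collection as a block. By the brightest probe of each gene, 4 members were higher and 5 were lower in shpkp3-2, with a median log2 difference of -0.14 against 0.05 over all tested probes. Without the first vec array 5 were higher and 4 were lower, and the median was 0.01. At an unadjusted p under 0.05, 2 were higher (DUSP4 and DUSP7), where 7.35% of all tested probes were, and 1 was lower (DUSP6), where 4.98% were. The arrays of the clones did not overlap for 4 of the 9 (DUSP4, DUSP6, DUSP7 and DUSP8), while 45.2% of all tested probes did not overlap. The study names 2 fold rules for these cells, neither of which is a test. By the filter of its table, a log2 difference of 1 or more from the vec mean on both shpkp3-2 arrays, none of the 9 was listed. Of the 50117 probes with a value on all 4 arrays, detected or not, it listed 0.68% as higher and 0.379% as lower. The study's 1.5-fold rule compares the clones and was applied here to each shpkp3-2 array, with detection required in the higher clone. By it DUSP4 and DUSP7 were listed as higher, as were 2.58% of the 50117 probes, and DUSP6 as lower, as were 1.61%. The first DUSP10 probe was 1.54-fold higher on the mean of the arrays and was not listed.

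The inducible nuclear phosphatases DUSP1, DUSP2, DUSP4 and DUSP5 did not move one way. DUSP4, which acts on ERK and JNK in the nucleus, had levels of 3.22 and 3.0 in vec and of 3.74 and 4.07 in shpkp3-2. Both shpkp3-2 arrays lay above both vec arrays. Its log2 difference was 0.80 (SE 0.21, 95% interval 0.29 to 1.30, n = 2 arrays per clone), with a limma adjusted p of 0.240, or 0.156 with the collection as a block. It was 0.51 in collection 1 and 1.08 in collection 2.

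DUSP1, an immediate early gene whose product inactivates p38, JNK and ERK, had levels of 1.04 and 0.29 in vec and of 0.24 and 0.32 in shpkp3-2. The first vec array was high, and the other 3 lay within 0.1 of each other, so that the clones overlapped. The log2 difference was -0.38 (SE 0.28) with all arrays and -0.01 without the first vec array. DUSP5, a nuclear phosphatase selective for ERK, was also highest on the first vec array, with levels of 2.25 and 1.28 in vec and of 1.00 and 1.57 in shpkp3-2. Its log2 difference was -0.48 (SE 0.37), and it turned to 0.01 without the first vec array.

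DUSP2, a nuclear phosphatase first known from activated lymphocytes, is read by 2 probes. The brighter probe had levels of 1.27 and 1.78 in vec and of 1.99 and 1.76 in shpkp3-2. The second, whose sequence is printed above, had levels of -1.67 and -0.70 in vec and of -0.50 and -0.73 in shpkp3-2. On both probes the first vec array was lowest and the second vec array lay among the shpkp3-2 arrays. The log2 differences were 0.35 (SE 0.23) and 0.57 (SE 0.34), and in collection 2 they were -0.02 and -0.03.

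The cytoplasmic phosphatases DUSP6 and DUSP7, which are selective for ERK, lay on opposite sides. DUSP6, whose transcript is a common readout of ERK activity, had levels of 4.94 and 4.47 in vec and of 3.74 and 3.97 in shpkp3-2. The shpkp3-2 arrays were both lower than the vec arrays. The log2 difference was -0.85 (SE 0.23, 95% interval -1.41 to -0.30), with a limma adjusted p of 0.250, or 0.118 with the collection as a block. It was -1.20 in collection 1 and -0.51 in collection 2, and -0.62 without the first vec array.

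DUSP7 was dim, with processed signals of 12.2 and 13.7 in vec and of 26.1 and 18.6 in shpkp3-2, and was well above background on all 4 arrays. Its levels were -5.35 and -4.80 in vec and -3.86 and -4.33 in shpkp3-2, again without overlap. The log2 difference of 0.98 (SE 0.27, 95% interval 0.32 to 1.64) had a limma adjusted p of 0.261, or 0.0620 with the collection as a block. With normexp background correction, which also adds an offset of 50, the difference was 0.37, so that its size depends on how a dim probe is processed.

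The phosphatases DUSP8, DUSP10 and DUSP16, which prefer JNK and p38, had smaller differences or probes that disagreed. The 3 probes of DUSP8 had log2 differences of -0.14, 0.23 and -0.01 (limma adjusted p = 0.783, 0.659 and 0.988). On the brightest of them the levels were -0.36 and -0.54 in vec and -0.58 and -0.59 in shpkp3-2, a gap of less than the distance between the vec arrays.

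The first DUSP10 probe had levels of -2.75 and -3.90 in vec and of -2.57 and -2.83 in shpkp3-2, a log2 difference of 0.62 (SE 0.38). The second had levels of -2.50 and -3.80 in vec and of -3.42 and -2.90 in shpkp3-2, a log2 difference of -0.01 (SE 0.44). The vec arrays differed by more than 1 log2 unit on both probes, and the shpkp3-2 levels of the second lay between them. In that probe the difference was -0.92 in collection 1 and 0.90 in collection 2.

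DUSP16, a phosphatase that shuttles between nucleus and cytoplasm, is read by 4 probes. On 3 of them the log2 differences were -0.17, 0.16 and -0.15 (limma adjusted p = 0.761, 0.746 and 0.833). The dimmest probe was well above background on 1 array of each clone and was not tested. For DUSP10 and DUSP16 the 95% intervals of the differences spanned 0 on every tested probe, and that of the first DUSP10 probe ran from -0.31 to 1.56.

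**Figure D2:**
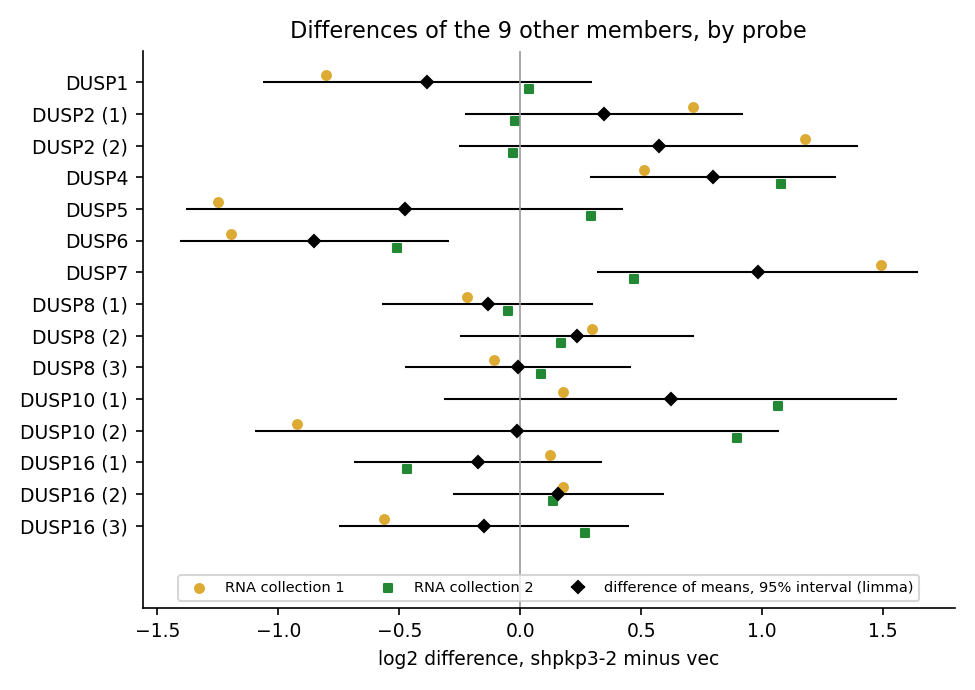
Log2 differences, shpkp3-2 minus vec, of the 15 tested probes of the 9 other members. Diamonds and lines are the difference of means with its 95% interval from limma, circles collection 1 and squares collection 2. The intervals of DUSP4, DUSP6 and DUSP7 lay to 1 side of 0, and 8 probes had differences of opposite sign in the collections.

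On 8 of the 15 tested probes the difference between the clones had opposite signs in collection 1 and collection 2. The 7 others, which read DUSP4, DUSP6, DUSP7, DUSP8 (its 2 brighter probes), DUSP10 (its first probe) and DUSP16 (its second probe), kept their direction in both collections and under the 12 alternatives tried.

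The other genes of the MAP kinase pathway were read from a list of 75 genes, of which 72 were tested, each by its brightest probe. None was called by limma, while 0.39% of all tested probes were. The lowest adjusted p was 0.135. At an unadjusted p under 0.05, 2 were higher, where 7.35% of all tested probes were, and 5 were lower, where 4.98% were. Without the second vec array, limma called 3 genes lower, FOS, RASA1 and SPRED2, where it called 202 of the 30512 tested probes lower and 400 higher. In that fit vec is represented by its first array alone, and its spread is assumed to be like that between the shpkp3-2 arrays. Of the 72 genes 22 were higher and 50 were lower in shpkp3-2, and their median log2 difference was -0.12 against 0.05 over all tested probes. The median was -0.22 without the second vec array, and it was -0.26 in collection 1 and -0.05 in collection 2. With the collection as a block, 1 gene was called, the receptor tyrosine kinase EPHA2, where 2.76% of all tested probes were called.

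Among the 17 transcripts known to be induced through ERK, 5 were higher and 12 were lower, with a median of -0.20. Without the first vec array 8 were higher and 9 were lower with a median of -0.04, and without the second vec array the median was -0.35. In collection 2 alone 9 were higher and 8 were lower, with a median of 0.09. EPHA2 had signals of 636 and 483 in vec and of 231 and 258 in shpkp3-2. Its log2 difference was -0.97 (SE 0.18), with an adjusted p of 0.135 by limma and of 0.0492 with the block. TRIB1, a pseudokinase gene, lay at the other end with 0.50 (adjusted p = 0.344 by limma).

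Among the 10 inhibitors upstream of ERK, 2 were higher and 8 were lower, with a median of -0.32. The median was -0.14 without the first vec array, -0.53 without the second and -0.13 without the first shpkp3-2 array. In collection 2 it was 0.04, with 5 genes on each side. SPRED2, which holds back RAF activation, had signals of 322 and 117 in vec and of 81.9 and 98.5 in shpkp3-2. The first vec array was far above the other 3, and the log2 difference of -0.90 (SE 0.36) had an adjusted p of 0.402 by limma. SPRY3, a Sprouty gene of the same negative feedback, had the highest difference of this group, 0.34.

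Of the 13 MAP kinase genes tested, 3 were higher and 10 were lower. MAPK4, an atypical MAP kinase, had the lowest difference at -0.90 (SE 0.22, adjusted p = 0.224 by limma), and its 2 other probes gave -1.0 and -1.08. MAPK13, a p38 kinase, had the highest at 0.61 (adjusted p = 0.580), with opposite signs in the collections. The 12 RAS and RAF genes and scaffolds ranged from -0.50 for the scaffold KSR2 to 0.57 for HRAS. HRAS gave 1.36 in collection 1 and -0.23 in collection 2, and it was at -0.07 without the first vec array. The 7 MAP kinase kinases ranged from -0.23 for MAP2K1 to 0.04 for MAP2K7. The probes of MAP2K7, the kinase of JNK, disagreed, as its dimmer probe gave -0.85. The 8 MAP kinase kinase kinases of the stress pathways ranged from -0.29 for MAP3K4 to 0.21 for MAP3K7, and the 5 transcription factors downstream of them from -0.25 for ATF2 to 0.37 for JUN.

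**Figure D3:**
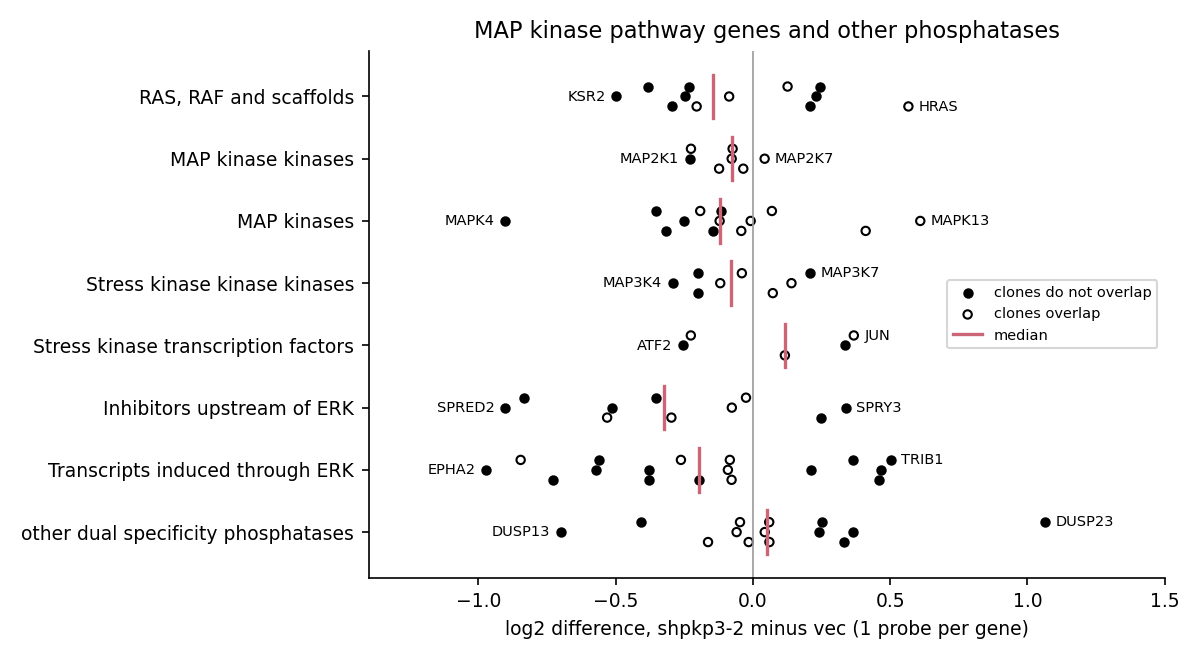
Log2 differences, shpkp3-2 minus vec, of the 72 tested MAP kinase pathway genes by role and of 14 other dual specificity phosphatases. Filled points are genes whose clones do not overlap and open points genes whose clones overlap, the red line is the median of the group, and the lowest and highest gene of each group is named. The points lay between -0.97 for EPHA2 and 1.06 for DUSP23.

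A list of 16 other dual specificity phosphatases was chosen by name and includes DUSP9, itself a MAP kinase phosphatase. Of the 16, 14 were tested and none was called by limma. At an unadjusted p under 0.05, 1 was higher (DUSP23) and 1 was lower (DUSP13), where 7.35% and 4.98% of all tested probes were. Of the 14 tested, 8 were higher and 6 were lower, with a median of 0.05, and without the first vec array 7 lay on each side with a median of -0.02. DUSP23, a small phosphatase that like DUSP26 lacks the MAP kinase binding domain, had signals of 13729 and 12800 in vec and of 24686 and 23164 in shpkp3-2. The clones did not overlap, and the log2 difference was 1.06 (SE 0.19, 95% interval 0.60 to 1.53). Its adjusted p was 0.129 by limma and 0.0263 with the collection as a block. The lowest difference in this group was -0.70 for DUSP13 (adjusted p = 0.286 by limma).

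Of the proteins reported to bind DUSP26 or to be dephosphorylated by it, HSF4, KIF3A, KIF3B, KIFAP3 and FADD were tested and none was called, nor did any reach an unadjusted p under 0.05. Their log2 differences were 0.26 for FADD, an adaptor of death receptors, and 0.14 for the heat shock factor HSF4. The kinesin genes KIF3A, KIFAP3 and KIF3B gave 0.17, 0.20 and -0.13. The lowest adjusted p of these genes was 0.640 by limma.

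The 5 nearest protein coding genes with a probe on each side of DUSP26 were NRG1, POFUT3, MAK16, TTI2 and RNF122 and, on the other side, UNC5D, KCNU1, ZNF703, ERLIN2 and PLPBP. Of these 10, 7 were tested and none was called, with log2 differences between -0.44 and 0.24 and a median of 0.04. MAK16, a ribosome biogenesis gene, was the 1 gene at an unadjusted p under 0.05, with a difference of -0.44 (adjusted p = 0.405 by limma). Of all tested probes, 4.98% were lower at an unadjusted p under 0.05. UNC5D and KCNU1, which lie nearest on their side, were seen on no array. DUSP4 lies on the same chromosome, with 17 genes that have a probe between it and DUSP26.

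**Figure D4:**
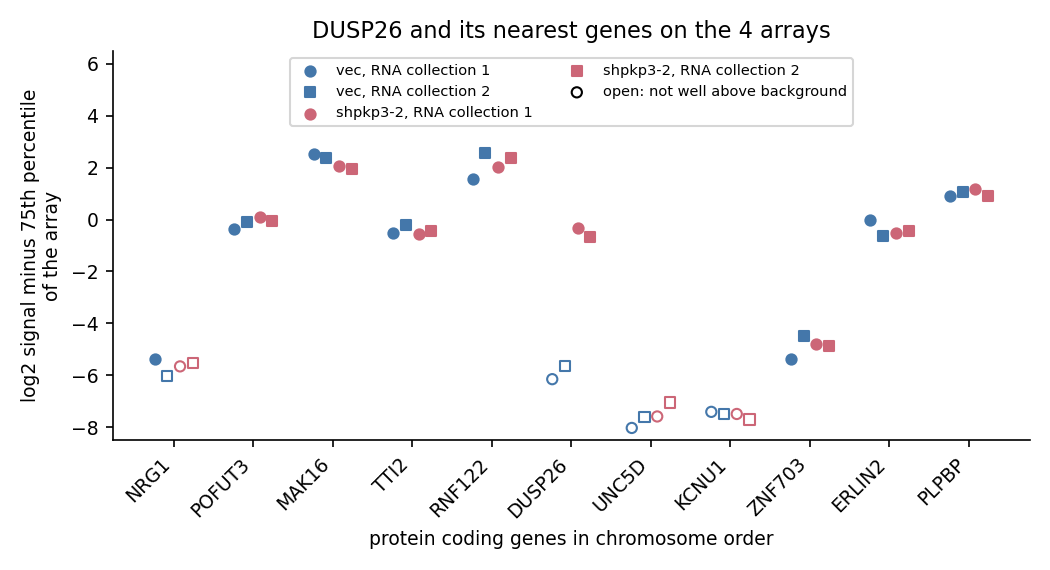
Levels (log2 processed signal minus the 75th percentile of the array) of DUSP26 and the 5 nearest protein coding genes on each side, in chromosome order and not to scale in distance. Symbols are as for the 10 phosphatase genes. DUSP26 was at -0.31 and -0.67 in shpkp3-2 and near background in vec, while the 7 tested neighbours differed between the clones by -0.44 to 0.24.

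The 4 genes whose values over the 4 arrays were most like those of DUSP26 were MAGED2, PRR15L, DAPL1 and IGFL2. Likeness was the root mean square distance between log2 values centred on the mean of each gene, and it was 0.21, 0.38, 0.48 and 0.66. MAGED2, a type II MAGE gene, had a log2 difference of 5.31 and PRR15L, a gene with a proline rich protein, of 4.67. DAPL1 and IGFL2 were not well above background in vec, and were at least 22.5-fold and 4.09-fold higher in shpkp3-2. The distances use vec signals that were not well above background for DUSP26, DAPL1 and IGFL2, so their order is uncertain. As the distance was computed over 4 arrays of 2 clones, the likeness is a description, with no test.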

How the data were processed

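RNA of 4 HCT116 samples was read on single color arrays. The authors ran the Agilent Feature Extraction software (version 9.1 in the submitters' notes, 10.7.3.1 in the file headers) and deposited the processed signal, an intensity after detrending and background subtraction, not scaled between arrays. The array is a custom design on hg18. From these intensities the log2 was taken and the 75th percentile of 51538 non-control spots subtracted; non-uniform spots (26 to 39 per array) were left out and spots of a probe averaged. Of 50117 probes, 30512 passed the software's background flag on both arrays of a clone and entered limma 3.58.1 (R 4.3.3, lmFit, eBayes, Benjamini-Hochberg, threshold 0.05), with no covariate and with the RNA collection as block. The series design pairs arrays by collection; same-numbered deviations correlated at -0.199. The number of arrays limits the precision.

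The members and lists were chosen with earlier results of these data known. All member probes are given. Some genes of the lists are not reported here. From each list, called genes and the largest rise and fall per role are named. Symbols follow RefSeq (GRCh38.p14), matched by accession for 28595 probes, symbol for 2998 and older symbol for 1176. The alternatives were normexp (offset 50), quantile and median scaling, other detection filters, a trended prior, a floor of 5, fold rules (log2 difference of 1 or more, or 1.5-fold), and each array left out. The fit was also run on simulated data with independent noise, where only the recovery of added differences was checked.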

Additional observations from a re-analysis of the deposited data

Results flagged for a closer look

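On the brightest probe of 4 members the clones differed in opposite directions in the 2 RNA collections, with 1 array per clone and collection, so that the difference between collections was not tested. The log2 difference of DUSP1 was -0.80 in collection 1 and 0.0345 in collection 2. That of DUSP5 was -1.25 and 0.29. DUSP2 gave 0.72 in collection 1 and -0.0230 in collection 2, and DUSP16 gave 0.12 and -0.47.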

How the results depend on the processing

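DUSP26 was selected on this contrast, so its passing the threshold is no test of it and its repeats are no sign of stability. It was the 1 member past the threshold, and the count was 0 where probes had to be well above background on all 4 arrays, since DUSP26 then drops out. The 9 other members were called under none of the 12 alternatives of the limma fit. By the 1.5-fold rule, an alternative chosen after seeing the data, 3 of them were listed (DUSP4, DUSP6 and DUSP7), as were 5 pathway genes (EPHA2, FOS, MAPK4, RASA1 and SPRED2) and 1 other phosphatase (DUSP23, higher). The pathway genes were all lower. Of all 50117 probes, including those not detected, the rule listed 2.58% as higher and 1.61% as lower. The log2 difference of DUSP26 was 2.43 with normexp and 5.14 to 5.66 with an array left out. Called pathway genes numbered 1 with normexp and 1 with the replicate block (EPHA2 in both), and 0 to 3 with an array left out, the highest without vec replicate 2 (FOS, RASA1 and SPRED2). Called phosphatases outside the members numbered 1 with normexp, with the replicate block, with the trended and robust prior and with the rule of a log2 difference of at least 1, and 0 to 1 with an array left out (DUSP23 in each). With no filter on detection PKP3 kept its log2 difference of -2.54 and its adjusted p was 0.135. Over all tested probes the replicate block gave 503 higher and 338 lower calls, and the crossed pairing 64 and 40. Without vec replicate 2 the counts were 400 and 202, without vec replicate 1 181 and 76, and without shpkp3-2 replicate 2 79 and 70. Quantile normalization gave 42 and 32, normexp 109 and 64, median centring 82 and 59, no filter 10 and 8, detection on all arrays 25 and 21, and the trended prior 114 and 59. The causes were not tested. Dim probes such as DUSP7 and DUSP26 in vec are limited by signal over background. Among the genes named, the block also called GFAP (adjusted p = 0.0219), and it changed no call of the 9 other members.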

Other observations

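Markers of other cell types were read on the same arrays. Of 6 fibroblast markers 2 (COL1A1 and THY1) were well above background in both clones, of 3 endothelium markers 1 (VWF), and of 5 leukocyte markers 4. PTPRC, the defining leukocyte antigen, was seen on no array. CD68, a lysosomal protein of macrophages, had signals of 149 and 109 in vec and of 296 and 296 in shpkp3-2, a log2 difference of 1.43 (limma adjusted p = 0.0459).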
